A study of Mus musculus with 5 samples.

Results

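The genes for cyclin G2 (Ccng2), CREB3 regulatory factor (Crebrf), the HMG-box repressor Hbp1, the Kelch-like protein Klhl24, the F-box protein atrogin-1 (Fbxo32) and the PI3 kinase interacting protein Pik3ip1 were examined in mouse glioma cells, with and without insulin-like growth factor 1 (IGF-1). These 6 genes were selected by symbol out of 29495 in the count tables, and all 6 were found. They had been picked because earlier work on these same libraries showed them lower with IGF-1, so their levels and changes are given here as a description, and no test on them is used as support. The tested cells came from co-culture with olfactory bulb neurons and received 20 ng/mL of IGF-1 overnight (IGF-1 replicates 3, 4 and 5), and the controls came from the same kind of co-culture without it (control replicates 1 and 2). Every library shares the genotype p53-/-;NF1-/-;tdTomato+/-, and the cells derive from tumors of mice with CD-1 and C57BL/6 ancestry, while the neurons came from C57BL/6 pups of postnatal day 2 to 3. The labels do not say which promoter or Cre made the tumors, nor whether each library had its own culture or animal, so the spread between libraries may be technical. The plating medium contained insulin and the media contained serum, so growth factors were present in the controls too. In such bulk libraries fewer cells with a transcript and less of it per cell cannot be told apart.

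Insulin and IGF-1 receptors activate PI3 kinase and AKT, and AKT phosphorylates FOXO transcription factors and keeps them out of the nucleus. Many genes that slow growth, spare energy or degrade protein are FOXO targets, and their transcripts are known to fall when insulin-like signals are present and to come back when nutrients or growth factors are withdrawn. Ccng2 and Fbxo32 are among the best known of these targets, Fbxo32 mainly from wasting muscle. In flies the counterpart of Crebrf, REPTOR, is a transcription factor held inactive by the TORC1 kinase, a nutrient and growth factor sensor.

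Total counts were 18359421 to 20144181 per library with IGF-1 and 16944315 to 17365697 in the controls. The sorted cells carried the glial identity of the label: the oligodendrocyte lineage markers Olig1, Olig2, Sox10, Pdgfra, Cspg4 and Ptprz1 summed to 3757 to 4237 CPM (counts scaled to a common library size with TMM factors) with IGF-1 and 3577 to 3701 CPM in the controls. The 7 neuronal markers in the files summed to 9.95 to 17.0 CPM with IGF-1 and 8.91 to 9.29 CPM in the controls. They differed among themselves: Rbfox3 had at most 1 count in any library, but Syt1 had 81 to 232, Dcx 19 to 48 and Gad1 11 to 34. Some neuronal transcripts were thus read in every library. All 4 microglial markers together stayed between 0.636 and 0.771 CPM with IGF-1 and between 0.531 and 0.923 CPM in the controls, the 2 endothelial markers between 0.294 and 1.32 CPM and between 0.923 and 1.00 CPM, and the 3 astrocyte markers between 6.51 and 12.0 CPM and between 10.5 and 11.8 CPM. The highest neuronal sum and the lowest endothelial and astrocyte sums were those of IGF-1 replicate 5. That library also had the highest total and the most genes with a count, 24059, against 23560 to 23602 in the other libraries. Values without that library are given beside the results for the 6 genes, and elsewhere where they differ in call or sign.

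Cyclin G2 is an unconventional cyclin whose level rises in cells that leave the cycle and whose overproduction arrests them. Ccng2 stood at 15.9, 18.3 and 18.8 CPM in the 3 IGF-1 libraries, against 47.6 and 44.5 CPM in the controls. The lowest control was thus 2.37 times the highest IGF-1 library, the widest gap among the 6 genes. The means were 17.7 ± 1.57 CPM with IGF-1 (SD, n = 3) and 46.1 ± 2.20 CPM in the controls (SD, n = 2), and the fitted log2 change was -1.38 with a standard error (SE) of 0.10, or 38.4% of the control level. Without IGF-1 replicate 5 the change was -1.43.

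Crebrf, first described as a factor that recruits the stress-linked transcription factor CREB3 and promotes its breakdown, had 26.1, 26.6 and 31.4 CPM with IGF-1, against 69.5 and 71.5 CPM in the controls. All IGF-1 libraries lay far below both controls, and replicates 3 and 4 were nearly equal. Its mean was 28.0 ± 2.93 CPM with IGF-1 and 70.5 ± 1.40 CPM in the controls (SD, n = 3 and 2), a log2 change of -1.33 (SE 0.09), or 39.8% of the control level, and -1.42 without IGF-1 replicate 5. Among the 9779 genes tested that averaged at least 10 CPM, Ccng2 had the lowest log2 change of all and Crebrf the next. Over all 15919 genes tested they ranked 29 and 39 from the lowest. Both genes were chosen on this contrast, so the ranks are a description only.

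Fbxo32 encodes the substrate-binding subunit of a ubiquitin ligase. It was the least abundant of the 6, with 11.1, 13.4 and 15.3 CPM in IGF-1 libraries, against 27.4 and 25.2 CPM in the controls. The groups did not overlap, but the IGF-1 libraries spread over 0.47 on the log2 scale, against 0.12 between the controls. The log2 change was -0.98 (SE 0.13), which is 50.7% of the control level, and -1.10 without IGF-1 replicate 5.

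Hbp1 encodes a repressor that binds the retinoblastoma protein family and silences cell cycle and Wnt-responsive genes. It was read at 16.5, 16.8 and 17.1 CPM with IGF-1, against 29.0 and 32.0 CPM in the controls. Its 3 IGF-1 values were the tightest of any of the 6 genes, spanning 0.05 on the log2 scale, and replicate 5 did not stand out. The log2 change was -0.86 (SE 0.10), or 55.0% of the control level, and -0.88 without IGF-1 replicate 5. In the mouse annotation of build GRCm38, 1514 of the 6167 exonic bases of Hbp1 are shared with exons of Cog5 on the opposite strand, and the use of strand in counting is not stated by the labels or headers, so reads of the pair may be mixed. Cog5, a Golgi complex subunit gene, had 23.0, 23.5 and 16.5 CPM with IGF-1 and 23.0 and 25.0 CPM in the controls, and its log2 change of -0.20 (SE 0.15) did not pass the edgeR quasi-likelihood test (Benjamini-Hochberg adjusted p = 0.627). Fbxo32 and Pik3ip1 share 186 and 91 exonic bases with predicted genes on the opposite strand, and Ccng2, Crebrf and Klhl24 share none with other genes.

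Klhl24, an adaptor that brings substrates to the CUL3 ubiquitin ligase and is known in human skin for the turnover of keratin 14, was the most abundant of the 6 genes by reads. It had 50.2, 51.9 and 58.8 CPM with IGF-1, against 83.8 and 87.0 CPM in the controls. The groups were apart by a factor of 1.43 at their nearest values. The log2 change was -0.67 (SE 0.08), or 62.8% of the control level, and -0.74 without IGF-1 replicate 5.

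Pik3ip1 encodes a transmembrane protein with a kringle domain that binds the catalytic subunit of PI3 kinase and lowers its activity. It had 16.2, 19.8 and 24.4 CPM with IGF-1, against 32.3 and 31.0 CPM in the controls. IGF-1 replicate 5 came nearest to the controls here, and the IGF-1 libraries spread over 0.59 on the log2 scale, the widest of the 6 genes. The log2 change was -0.65 (SE 0.14), or 63.8% of the control level, and it was -0.81 without IGF-1 replicate 5 and -0.51 without replicate 3.

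**Figure D1:**
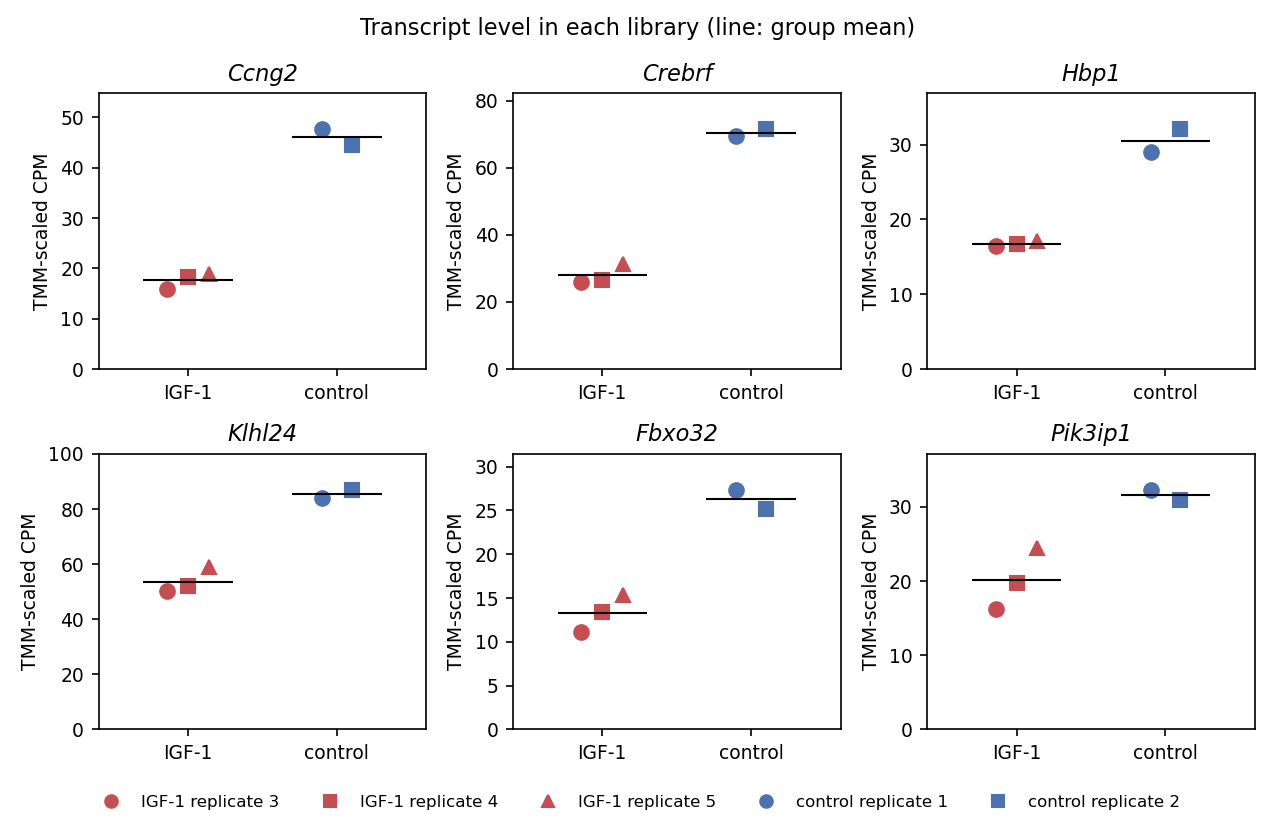
TMM-scaled CPM (y axis, from 0) of each of the 6 genes in 3 IGF-1 libraries (red) and 2 control libraries (blue), with 1 point per library and a line at the group mean. No red point reaches a blue one, and for Ccng2 the IGF-1 points lie at 15.9 to 18.8 CPM, against 44.5 and 47.6 CPM in the controls.

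Counting error was small beside these differences. Each value rests on 201 to 1202 counts with IGF-1 and 427 to 1474 counts in the controls, and exact Poisson 95% intervals, which cover counting error only, reached 5.14% to 14.1% of the value on either side. The 6 genes together held 136, 147 and 166 CPM in the IGF-1 libraries, against 290 and 291 CPM in the controls. IGF-1 replicate 5 was the highest of the 3 IGF-1 libraries for 6 of 6 genes. It was the highest for 39.7% of all genes tested and for 20 of the 54 genes called lower, which include 5 of the 6. All 6 genes were thus nearer to the controls in that library than in the other IGF-1 libraries, by little for Hbp1 and Ccng2 and most for Pik3ip1.

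For all 6 genes every IGF-1 library lay below both controls, a pattern that 16.9% of the 15919 genes tested showed. The edgeR quasi-likelihood test, adjusted by Benjamini-Hochberg over all genes, called 5 of the 6 lower, all but Pik3ip1, where 0.339% of all genes tested were called lower, and 6 of 6 without IGF-1 replicate 5, where 3.65% were. It called 5 without IGF-1 replicate 3 or 4, and 2, Ccng2 and Crebrf, with either control left out. DESeq2 also called 6 of 6 lower, where 0.747% of the genes given an adjusted p were. Because the genes were chosen on this contrast, nothing is read from these counts. The log2 changes of the 6 ran from -1.38 to -0.65 with a median of -0.92, whereas the median over all genes tested was -0.0076 and their 5th and 95th percentiles were -0.49 and 0.45.

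**Figure D2:**
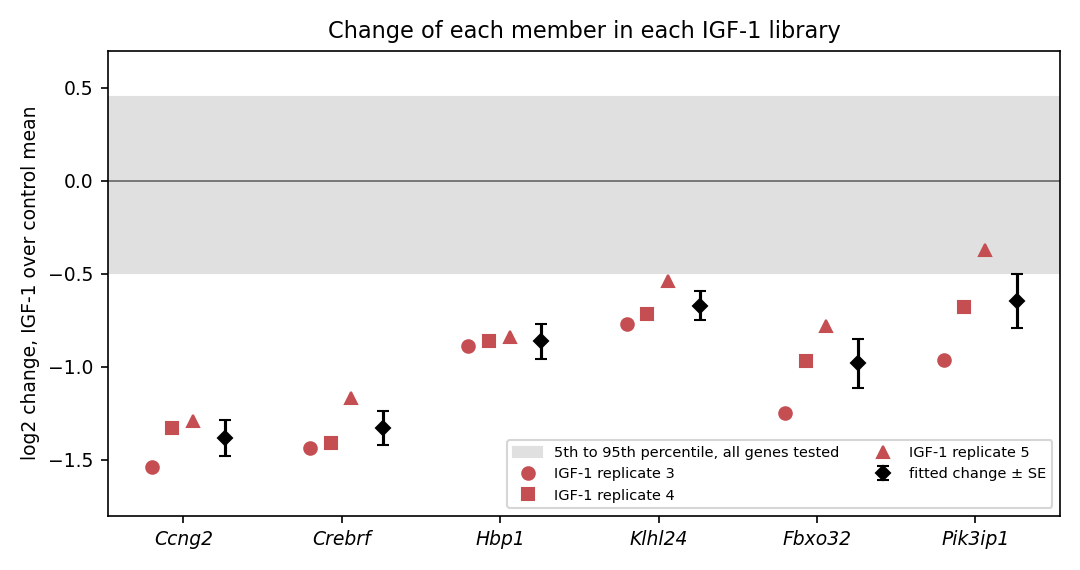
Log2 change (y axis) of each of the 6 genes in each IGF-1 library relative to the mean of the 2 controls (red), with the fitted change and its SE (black diamonds) and the 5th to 95th percentile of the fitted changes of all genes tested (grey band, -0.49 to 0.45). Ccng2 and Crebrf lie lowest, at -1.38 and -1.33, and Pik3ip1 in IGF-1 replicate 5 is the only point inside the band.

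The size of the difference varied among the 6 genes, and ratios of counts within a library, which no scaling can alter, show how. Ccng2 and Crebrf differed little in proportion: there were 0.609, 0.689 and 0.599 counts of Ccng2 for each count of Crebrf with IGF-1, against 0.685 and 0.623 in the controls, and the groups overlapped. Klhl24, in contrast, had 1.93, 1.95 and 1.88 counts for each of Crebrf with IGF-1, against 1.21 and 1.22 in the controls. The IGF-1 values of that ratio varied little and lay well above the controls.

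Relative to Ccng2, each of Hbp1, Klhl24, Fbxo32 and Pik3ip1 was higher in every IGF-1 library than in either control. Ccng2 had the lowest log2 change of the 6 and is the shared denominator, so these ratios are not separate observations. The ratio to Ccng2 averaged 0.954 ± 0.0727 with IGF-1 and 0.664 ± 0.0790 in the controls for Hbp1, and 0.749 ± 0.0600 and 0.570 ± 0.00582 for Fbxo32 (SD, n = 3 and 2). For Pik3ip1 it averaged 1.13 ± 0.145 with IGF-1 and 0.688 ± 0.0124 in the controls. Pik3ip1 and Klhl24, the least changed of the 6, overlapped between the groups in their ratio to each other, at 0.324 to 0.415 with IGF-1 and 0.356 to 0.385 in the controls.

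**Figure D3:**
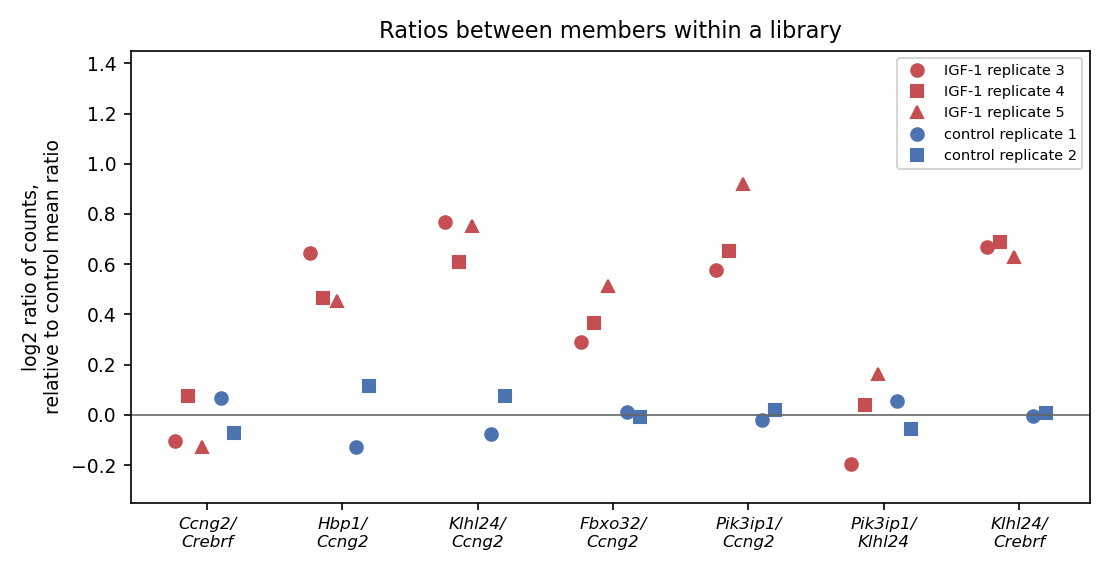
Log2 of the ratio between the counts of a pair of genes in the same library, relative to the mean ratio of the controls (y axis), for 7 pairs, in IGF-1 libraries (red) and controls (blue). Ccng2 over Crebrf and Pik3ip1 over Klhl24 overlap between the groups. The other 5 ratios, most of them with Ccng2 as the shared denominator, are higher in every IGF-1 library.

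Compared per length of the principal transcript, the order of the genes differed from that by reads. With IGF-1 the order was Pik3ip1 at 7.83 ± 1.59 CPM per kilobase, Klhl24 at 6.56 ± 0.559, Ccng2 at 6.28 ± 0.559, Hbp1 at 5.34 ± 0.0970, Crebrf at 3.75 ± 0.393 and Fbxo32 at 1.90 ± 0.305 (SD, n = 3). The first 3 of these were within their spread of each other. In the controls Ccng2 was the highest at 16.4 ± 0.783 CPM per kilobase, followed by Pik3ip1 at 12.3 ± 0.367, Klhl24 at 10.5 ± 0.271, Hbp1 at 9.71 ± 0.692, Crebrf at 9.44 ± 0.188 and Fbxo32 at 3.77 ± 0.218 (SD, n = 2). There Klhl24 and Hbp1, and Hbp1 and Crebrf, did not differ beyond their spread. By this length Ccng2 thus stood above the other 5 genes in the controls alone. Counts per gene may also hold reads from exons outside the principal transcript. All annotated exons span 5458 bases for Ccng2 and 10183 for Klhl24, against 2810 and 8172 in the principal transcript. The order, the lead of Ccng2 included, therefore depends on the length chosen. Fbxo32 was the lowest in both groups.

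Promoter sequence was available for 4 of the 6 genes, Ccng2, Crebrf, Hbp1 and Pik3ip1, from RefSeq on build GRCm38.p6. The 250 bases before the start of each are shown so that letters bound by forkhead factors such as FOXO can be looked for in them. Capitals mark matches, on either strand, to TAAACA (a forkhead core), GTAAACA (the fuller FOXO element, which contains it), CAAAACAA (the insulin response element), CACGTG (an E-box) and TGACGTCA (a cyclic AMP response element). The windows are chr5:93267323-93267572 on the plus strand for Ccng2, chr17:26715400-26715649 on the plus strand for Crebrf, chr12:31950246-31950495 on the minus strand for Hbp1 and chr11:3330481-3330730 on the plus strand for Pik3ip1. For Crebrf a stretch after the start, chr17:26715672-26715699, is added because it holds matches.
Ccng2: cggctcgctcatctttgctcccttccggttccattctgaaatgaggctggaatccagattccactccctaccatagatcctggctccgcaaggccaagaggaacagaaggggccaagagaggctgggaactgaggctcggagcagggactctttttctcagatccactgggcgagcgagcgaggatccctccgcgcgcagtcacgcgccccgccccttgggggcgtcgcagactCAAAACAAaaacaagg
Crebrf: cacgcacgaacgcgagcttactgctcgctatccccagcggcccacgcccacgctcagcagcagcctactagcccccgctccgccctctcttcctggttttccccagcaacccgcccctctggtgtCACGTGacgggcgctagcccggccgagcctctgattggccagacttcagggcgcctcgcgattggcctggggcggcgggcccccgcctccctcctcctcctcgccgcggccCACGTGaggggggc
Crebrf, after the start: ccgtcaggaaggacaTAAACAAAACAAa
Hbp1: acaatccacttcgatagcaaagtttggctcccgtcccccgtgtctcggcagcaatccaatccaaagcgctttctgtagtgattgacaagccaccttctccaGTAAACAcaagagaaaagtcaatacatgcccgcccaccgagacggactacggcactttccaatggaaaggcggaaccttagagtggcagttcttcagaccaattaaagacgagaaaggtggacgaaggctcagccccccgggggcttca
Pik3ip1: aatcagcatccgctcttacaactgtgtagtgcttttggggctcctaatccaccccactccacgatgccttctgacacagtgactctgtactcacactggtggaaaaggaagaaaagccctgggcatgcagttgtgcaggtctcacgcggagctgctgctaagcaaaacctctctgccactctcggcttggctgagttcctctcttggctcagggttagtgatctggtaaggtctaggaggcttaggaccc

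Positions are counted from the start of transcription, with negative numbers before it, over the whole window of 250 bases before to 50 after the start. Ccng2 held CAAAACAA at position -16. Crebrf held TAAACA at position 38 and CAAAACAA at position 42, which overlap, and CACGTG at positions -125 and -14. Hbp1 held GTAAACA at position -149, and Pik3ip1 held none of the motifs searched. Among 32851 windows of the same length, 13.4% held TAAACA, 3.65% GTAAACA, 2.51% CAAAACAA, 7.15% CACGTG and 1.79% TGACGTCA, a motif that none of the 4 genes had. A match describes letters and shows no binding, and the motifs were chosen after these sequences had been seen.

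The other known FOXO-activated genes were read from the same fit over all genes. This list was chosen with earlier results of these data known, so its counts are given as a description only. Of 28 tested, 0 rose and 4 fell by the edgeR quasi-likelihood test (Benjamini-Hochberg over all genes), where 0.685% and 0.339% of all genes did, and DESeq2 gave the same counts, where 1.6% rose and 0.747% fell. The falls were those of Bmf, a pro-apoptotic BH3-only gene (log2 -1.02, SE 0.19, adjusted p = 0.043), Klf15, a metabolic transcription factor (-0.81, SE 0.15, adjusted p = 0.0364), Txnip, a brake on glucose uptake (-0.58, SE 0.09, adjusted p = 0.0184), and Irs2, which couples insulin and IGF-1 receptors to PI3 kinase (-0.49, SE 0.07, adjusted p = 0.0137). Of the 28 log2 changes 24 were below 0, and their median was -0.14, smaller in size than any change among the 6 growth brake genes. The median over all genes tested was -0.0076. In 11 of the 28 every IGF-1 library lay below both controls, as in 16.9% of all genes tested. The call of 4 depends on the libraries: none of the 28 was called with either control or with IGF-1 replicate 3 or 4 left out, and 12 were called lower and 0 higher without IGF-1 replicate 5, where 3.65% and 5.49% of all genes were.

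Bmf had 4.63, 4.08 and 6.07 CPM with IGF-1, against 8.94 and 11.2 CPM in the controls. Irs2 had 183, 179 and 204 CPM with IGF-1, against 269 and 262 CPM in the controls. For both genes, as for the 6, replicate 5 was the IGF-1 library nearest to the controls. Txnip, at 21.3, 22.1 and 20.3 CPM with IGF-1 and 31.5 and 31.9 CPM in the controls, and Klf15, at 5.40, 5.98 and 5.68 CPM and 10.8 and 9.21 CPM, did not show that order. The FOXO genes themselves did not pass: Foxo1 was at 0.05 on the log2 scale (adjusted p = 0.939), Foxo3 at -0.19 (adjusted p = 0.47) and Foxo4 at -0.16 (adjusted p = 0.389). Foxo1 was at -0.14 without IGF-1 replicate 5, and Foxo3 was then called lower at -0.29 (adjusted p = 8.56e-05). Trim63, the muscle ubiquitin ligase usually named together with Fbxo32, was hardly read, with at most 0.147 CPM with IGF-1 and none in the controls.

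The genes whose products work with the 6, or belong to their families, gave few calls. Of 12 cyclin G relatives and subunits of the phosphatase PP2A, to which cyclin G2 binds, neither edgeR nor DESeq2 called any (0 of 12), and at an unadjusted p under 0.05 there were also 0. Ccng1, the nearest relative of Ccng2 and known mainly as a p53 target, had 40.9, 37.9 and 38.8 CPM with IGF-1 and 40.3 and 44.4 CPM in the controls (log2 -0.11, SE 0.08, edgeR adjusted p = 0.62), overlapping groups. Ccni was at -0.03, the PP2A catalytic gene Ppp2ca at 0.10 and the scaffold gene Ppp2r1a at 0.01 on the log2 scale, and the median of the 12 was 0.02. Without IGF-1 replicate 5, Ppp2ca was called higher at 0.12.

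Of 9 tested genes of the CREB3 family with its partners and targets, edgeR and DESeq2 called 0, and 2 were higher and 0 lower unadjusted. Creb3, whose protein Crebrf acts on, had 41.0, 39.5 and 32.7 CPM with IGF-1 and 39.1 and 38.8 CPM in the controls (log2 -0.05, adjusted p = 0.879 by edgeR), and its change was 0.05 without IGF-1 replicate 5. Creb3l2, an endoplasmic reticulum relative, was at 0.18 (adjusted p = 0.377), Hcfc1, a coactivator that binds CREB3, at 0.07, and Nr3c1, the glucocorticoid receptor gene, at 0.01, or -0.08 without IGF-1 replicate 5. The median was 0.07.

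Among 13 partners and targets of Hbp1, 2 rose and 0 fell by edgeR and DESeq2, which called 0.685% and 1.6% of all genes higher. Cdkn1a, the p21 cell cycle inhibitor gene, rose by 0.48 (SE 0.07, adjusted p = 0.0109), and Ccnd1, the cyclin D1 gene that Hbp1 is known to repress, rose by 0.36 (SE 0.07, adjusted p = 0.0385). Cdkn1a had 86.4, 90.6 and 89.9 CPM with IGF-1, against 65.1 and 62.6 CPM in the controls, and Ccnd1 had 1400, 1429 and 1545 CPM with IGF-1, against 1141 and 1135 CPM in the controls. Neither gene overlapped between the groups. In 6 of the 13 every IGF-1 library lay above both controls, as in 16.2% of all genes tested. Rb1 was at 0.16 (adjusted p = 0.541), and the median of the 13 was 0.09. With either control or IGF-1 replicate 4 left out, 0 of the 13 were called. Cdkn1a alone was called without IGF-1 replicate 3, and 4 genes were called higher without IGF-1 replicate 5, as were 5.49% of all genes.

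In the Kelch-like family with Cul3 and Rbx1, edgeR and DESeq2 called 0 of 27, unadjusted p was under 0.05 for 3 higher and 1 lower genes, and the median was -0.03. The most abundant were Klhl13 (0.02, or -0.06 without IGF-1 replicate 5) and Klhl5 (-0.13), and the scaffold gene Cul3 was at 0.06. The F-box only family with Skp1, Cul1 and Trim63 likewise gave 0 of 31 in both tools, 4 higher and 5 lower genes unadjusted, a median of -0.03, and Skp1 at -0.08 and Cul1 at 0.06. The log2 changes ran from -0.38 to 0.32 in the Kelch-like and from -0.39 to 0.37 in the F-box list. No tested relative of Klhl24 or Fbxo32 had as low a change. Klhl24 and Fbxo32 were chosen for being lower with IGF-1, so nothing is read from that difference. Without IGF-1 replicate 5, 2 were higher and 1 lower in the Kelch-like list, and 2 and 2 in the F-box list, beside 5.49% higher and 3.65% lower of all genes. Unadjusted, the shares over all genes were 7.1% higher and 5.57% lower.

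PI3 kinase and AKT genes also gave 0 calls of 19 in both tools, 1 higher and 1 lower gene unadjusted, and a median of 0.08. Pik3ca, which encodes the catalytic subunit that Pik3ip1 binds, had 102, 94.3 and 105 CPM with IGF-1 and 102 and 101 CPM in the controls (log2 -0.01, adjusted p = 0.965 by edgeR). The regulatory subunit gene Pik3r1 was at 0.10 (adjusted p = 0.529) and the phosphatase gene Inppl1 at 0.12. Without IGF-1 replicate 5, 1 of the 19 was higher and 1 lower, beside 5.49% and 3.65% of all genes.

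Of 27 other antiproliferative and cell cycle inhibitor genes, 1 rose, which was Cdkn1a again, and 0 fell, in edgeR as in DESeq2; 3 were higher and 7 lower unadjusted, and the median was -0.05. Unadjusted, 7.1% of all genes were higher and 5.57% lower. Without IGF-1 replicate 5, edgeR called 2 of the 27 higher and 5 lower, beside 5.49% and 3.65% of all genes. Named after their values were seen, those 5 were Trp53inp1, an autophagy and stress gene (-0.62), Btg1 (-0.40), Mxd1, an antagonist of MYC (-0.33), Cdkn1b, the p27 inhibitor gene (-0.23), and Ndrg2 (-0.16). With all libraries none of these 5 passed: Trp53inp1 was at -0.47, Btg1 at -0.28, Mxd1 at -0.39, Cdkn1b at -0.16 and Ndrg2 at -0.10. Cdkn1a and Cdkn1b, which both restrain cyclin-dependent kinases, thus had changes of opposite sign.

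**Figure D4:**
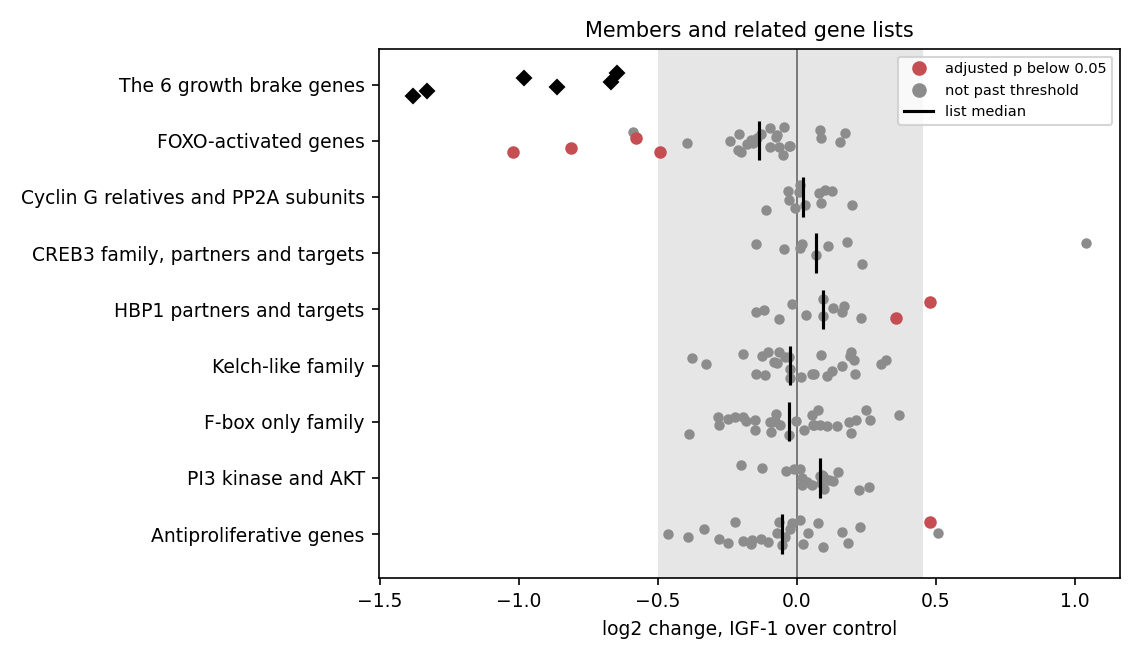
Log2 change with IGF-1 over control (x axis) of the 6 growth brake genes (black diamonds) and of the tested genes of 8 related lists, red where edgeR's adjusted p was below 0.05, with each list's median as a black line and the 5th to 95th percentile of all genes tested in grey. Among the lists only FOXO-activated genes hold calls below 0 (4 genes), and the medians of the 8 lists lie between -0.14 and 0.09. Genes and lists were chosen with earlier results of these data known.

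Likeness to the 6 was measured as the Euclidean distance between log2(CPM + 1) values, centred on each gene's mean over the 5 libraries, for 10428 other genes that averaged at least 5 CPM. The 6 genes themselves lay 0.133 (Fbxo32) to 0.434 (Ccng2) from their mean pattern, and the median gene lay at 1.08. The nearest others were Snai2, known from neural crest and epithelial-mesenchymal transition (distance 0.222), Pnrc1, a nuclear receptor coactivator gene (0.267), the zinc finger genes Zfp874b (0.286) and Zfp677 (0.314), Bmf (0.330) and Klf15 (0.350). Snai2 had 3.31, 3.65 and 3.52 CPM with IGF-1, against 7.10 and 8.26 CPM in the controls, and Pnrc1 had 16.6, 19.5 and 22.1 CPM with IGF-1, against 32.2 and 32.6 CPM in the controls. Reads of Zfp874b and Zfp677 could be shared with related zinc finger genes.

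Taken gene by gene, Snai2 was the nearest to Ccng2 (0.487), Crebrf (0.453) and Hbp1 (0.154), Zfp677 to Klhl24 (0.0652), and Pnrc1 to Fbxo32 (0.264) and Pik3ip1 (0.156). Ccng2 and Crebrf were much nearer to each other, at 0.181, than either was to Snai2. Both were chosen on this contrast and had the lowest log2 changes of the 6, so their nearness is not a separate observation. The other 4 went the other way: the nearest of the 6 lay at 0.230 for Hbp1 and Klhl24, which were nearest to each other, at 0.345 for Fbxo32 and at 0.254 for Pik3ip1, each farther than the gene named above. The gene named above was the nearest of 10428, far more candidates than the 6, so nothing is read from that order. Bmf and Klf15 are also on the list of FOXO-activated genes above. With 5 libraries in 2 groups, such distances mainly reflect the difference between the groups.

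**Figure D5:**
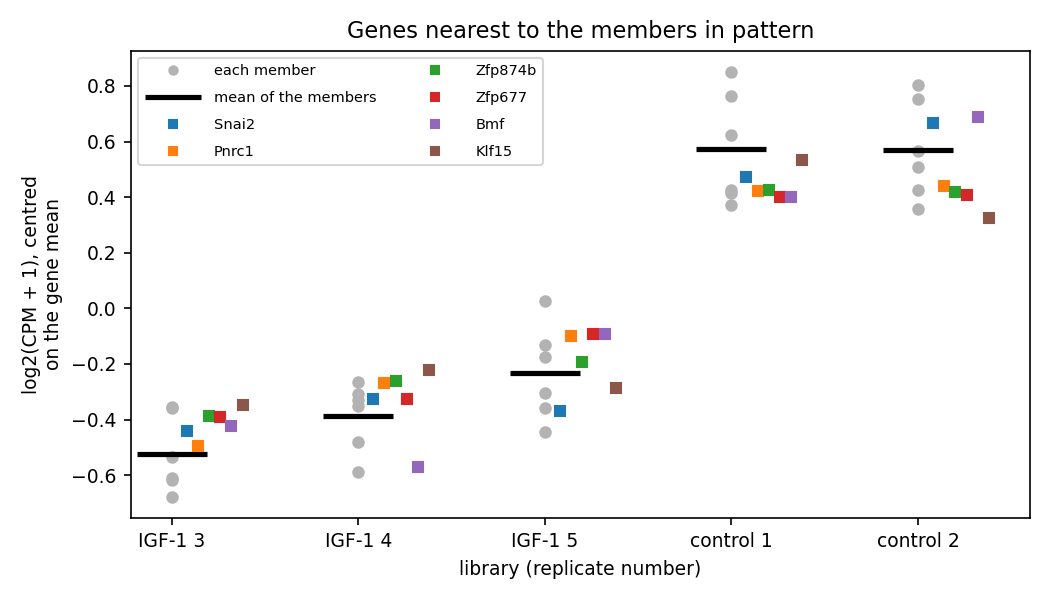
Log2(CPM + 1), centred on each gene's mean over the 5 libraries (y axis), in each library (x axis), for the 6 growth brake genes (grey), their mean (black bars) and the 6 other genes nearest to that mean (coloured squares). Every gene is below its own mean in IGF-1 replicates 3 and 4 and above it in both controls.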

How the data were processed

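RNA of sorted, co-cultured glioma cells was sequenced in 3 IGF-1 and 2 control libraries. The deposited values are raw counts per gene symbol, 1 table per library, with whole numbers and differing totals. Per the submitters' processing notes, cutadapt 3.4, STAR 2.7.9a, featureCounts 2.0.1, DESeq2 1.28.1 and build GRCm39 were used. The notes do not assign roles, and the annotation and the treatment of strand and multiply mapped reads are not given in the sources used here, so reads of related or overlapping genes may be shared.

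Groups follow the titles. Counts were fitted in R 4.3.3 with edgeR 4.0.16: filterByExpr (minimum count 10, minimum total 15) left 15919 genes, libraries were scaled by TMM factors, and the two-sided quasi-likelihood F-test was adjusted by Benjamini-Hochberg over all genes (threshold 0.05). The SE is the log2 change divided by the square root of F. Lists were read from that fit, without the 6 growth brake genes. Members and lists were chosen with earlier results of these data known. Genes named are the 6 and 14 related genes whatever their result, up to 4 called genes per list (else the 2 most abundant), and those nearest in pattern. Cog5 was added for its overlap. A gene that the rule names is not reported here. Of 33 listed FOXO-activated genes 30 and of 23 PI3 kinase genes 22 were found, and all genes of the other 6 lists. Alternatives were RLE factors, total counts, no filter, DESeq2 1.42.0 and each library left out. Transcript lengths came from GENCODE M21 (GRCm38), which held 97.5% of tested symbols. The procedure was also run on simulated data in which no library was made to deviate from the rest of its group, and no result here rests on that run.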

Additional observations from a re-analysis of the deposited data

How the results depend on the processing

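The log2 changes of the 6 growth brake genes kept their direction under every alternative run, and with RLE factors, total counts, no filter or DESeq2 each moved by less than the spread between libraries. With a library left out, Ccng2 ranged from -1.43 to -1.31, Crebrf from -1.42 to -1.28, Hbp1 from -0.93 to -0.79, Klhl24 from -0.74 to -0.62, Fbxo32 from -1.10 to -0.87 and Pik3ip1 from -0.81 to -0.51. Counts of calls were less stable. Over all genes, 109 higher and 54 lower became 385 and 221 with no filter, 191 and 89 by DESeq2, and 0 to 855 and 2 to 569 with a library left out. With no filter 2 Kelch-like genes were also higher and 2 antiproliferative genes lower. The cause was not tested. With a library left out, FOXO-activated genes gave 0 to 12 lower, cyclin G relatives with PP2A 0 to 1 higher, Hbp1 partners 0 to 4 higher, Kelch-like genes 0 to 2 higher and 0 to 1 lower, F-box genes 0 to 2 higher and 0 to 2 lower, PI3 kinase genes 0 to 1 higher and 0 to 1 lower, and antiproliferative genes 0 to 2 higher and 0 to 5 lower. Changes near 0 turned direction: Ccni ranged from -0.11 to 0.013, Creb3 from -0.11 to 0.046, Foxo1 from -0.14 to 0.24, Klhl13 from -0.059 to 0.056, Nr3c1 from -0.079 to 0.089, Pik3ca from -0.042 to 0.034 and Ppp2r1a from -0.015 to 0.062. With 1 control left out, the spread of the lone control is taken from the IGF-1 libraries. No paired analysis was possible because the replicate numbers are not shared between the groups.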
